A study of Arabidopsis thaliana with 16 samples.

Results

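The UDP-glycosyltransferases of Arabidopsis thaliana were followed through whole rosettes of 2 autophagy mutants and of wild-type plants. Members were the probe sets that the array's annotation gives to 1 gene with a symbol of UGT and a digit, leaving out the glucosinolate and anthocyanin enzymes UGT74B1, UGT74C1, UGT75C1 and UGT78D2. The rule found 45 genes, each with 1 probe set, among 22746 probe sets. Of these, 19 had signals high enough to be tested and 26 lay under the filter on dim probe sets.

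Days were short, with 8 h of light, and the nitrate supply was either low (LN), at 2 mM, or high (HN), at 10 mM. The mutants were atg5-3 (SALK_02060), called atg5 here, and atg9 (SALK_130796), each a single insertion line, and the wild type was Col-0. Autophagy carries cytoplasm to the vacuole for breakdown, and both genes belong to its core machinery. The groups were atg5, atg9 and Col-0 harvested 60 days after sowing on low nitrate, the same lines harvested at 30 days on low nitrate, and atg5 and Col-0 on high nitrate. The high-nitrate arrays are given as 30 days old in the titles and the design text and as 60 days old in the source and description fields, so their age is not settled. Each of the 8 groups had 2 arrays, 1 from each of 2 cultures grown months apart, and each array held RNA from a pool of more than 6 rosettes. ATG5 and ATG9 have no annotated probe set, and their own transcripts were not analysed here.

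UDP-glycosyltransferases move a sugar, most often glucose, from a UDP-sugar to a small acceptor molecule. In plants the acceptors include hormones such as abscisic acid, auxin, cytokinins and salicylic acid, phenylpropanoids, flavonols, sterols and foreign compounds. The added sugar usually makes the acceptor more soluble, often inactive if it is a hormone, and ready for storage in the vacuole. Related members often stand side by side in the genome as tandem copies.

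Values are signals on a linear scale, given for culture 1 and then culture 2. A change is a difference on the log2 scale, ± the SE from limma, and was called at a Benjamini-Hochberg adjusted p under 0.05 over the 13648 probe sets tested. Each group has n = 2 cultures. Each p rests on the spread left after the group means and a common culture difference, pooled over all 16 arrays. limma draws this spread toward that of probe sets of similar signal. The arrays had median signals between 154 and 254 and trimmed means between 500 and 500.1. A pair of arrays stood apart. On the culture 1 array of Col-0 at 30 days the lower quartile of signals was 89.3, while the other 15 arrays ran from 26.6 to 39.0, and its r with culture 2 was 0.866. In atg5 at 60 days, culture 1, the actin probes gave a 3′ to 5′ ratio of 9.05, against 1.5 to 3.04 on the other 15 arrays. Member changes that moved by over 1.5 times without this pair are also given without it. The 3 leaf markers with a named probe set, RCA, PRK and SBPASE, summed to between 33414 and 67095 on every array. In bulk rosettes, fewer cells of a type and less RNA per cell cannot be told apart.

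The family was unevenly measured. On all 16 arrays 18 members lay above the array's lower quartile of signals, and 5 lay under it on all 16, namely UGT72E3, UGT73C2, UGT74F1, UGT76E1 and UGT84B2. Signals of different probe sets are not on a common scale, so levels are compared only within a gene. UGT88A1 had a mean signal of 4947.8 and a range of 2373.5 to 9612.3. The flavonol rhamnosyltransferase UGT78D1 had a mean of 2370.1 and UGT71C4 a mean of 1390.0. At the dim end, UGT73B4 and UGT72E3 each had a mean of 6.4, and UGT76E1, an enzyme that acts on jasmonates, a mean of 5.1. The SD of log2 signals between the cultures had a median of 0.25 among the tested members and 0.64 among the dim ones, so changes of dim members carry more error.

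**Figure D1:**
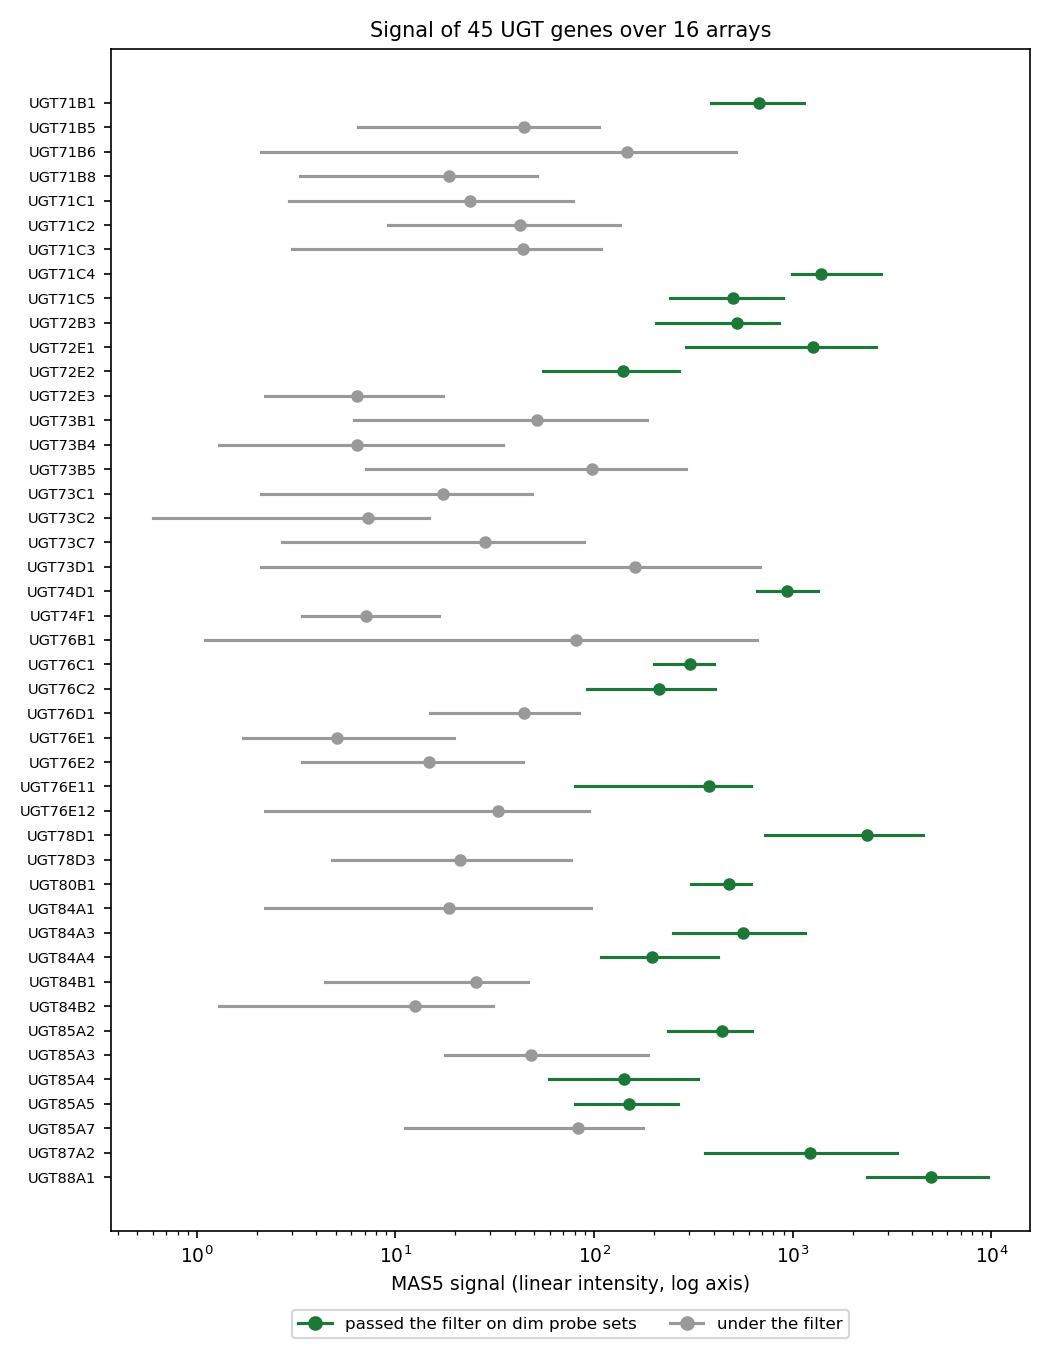
Mean signal (point) and lowest to highest signal (line) over the 16 arrays for each of the 45 UDP-glycosyltransferase genes, on a log axis, in order of gene name. The 19 genes in green passed the filter and the other 26 did not. UGT88A1 reaches 9612.3, and UGT71B6 and UGT73D1 run from 2.1 to above 500.

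The filter was passed by 42.2% of the members, beside 60% of all probe sets. By numbered group, it was passed by 3 of 9 UGT71 members, 3 of 4 UGT72, 0 of 7 UGT73, 3 of 8 UGT76, 2 of 5 UGT84 and 3 of 5 UGT85 members. The dim members UGT71B5, UGT71B8, UGT71C1, UGT71C2, UGT73B1, UGT73C7, UGT76D1, UGT76E2, UGT76E12, UGT78D3, UGT84A1 and UGT84B1 had signals between 2.2 and 183.7. In limma's fit without the filter 0 of their 180 changes over the 15 comparisons were called, and 14 had an unadjusted p under 0.05. The share of all probe sets under that p was not counted for this fit. In the RefSeq gene order, 29 of the 45 genes had another member within 5 protein-coding genes. Some of these runs mixed tested and dim members, and others held only dim ones or, with UGT76C2 and UGT76C1, only tested ones. UGT71C5, UGT71C4 and UGT71C3 are adjacent, and the first 2 were tested while UGT71C3, which acts on methyl salicylate, was dim. UGT85A7, UGT85A2, UGT85A5 and UGT85A3 form another run, of which UGT85A2 and UGT85A5 were tested.

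Across the 15 comparisons 7 of the 19 tested members were called at least once, where 38.3% of all tested probe sets were. UGT87A2 was called in 4 comparisons, UGT71C5 in 3, UGT72B3, UGT72E1, UGT76E11 and UGT85A4 in 2 each, and UGT78D1 in 1. The other 12 tested members were called in none of them.

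The comparison of mutants with Col-0 at 60 days on low nitrate asks how loss of autophagy alters transcripts in old rosettes. UGT87A2, known for its effect on flowering time, was the 1 member called, and it was higher in atg5. Its locus is AT2G30140. UGT87A2 had signals of 3345.1 and 3111.6 in atg5 rosettes, 2233.8 and 1095.7 in atg9 rosettes, and 361.3 and 486.0 in Col-0 rosettes. Every array of either mutant lay above both Col-0 arrays, and the atg5 arrays lay above the atg9 arrays. In atg5 the change was 2.94 ± 0.37, a 7.70-fold rise (adjusted p = 0.00251 by limma), at 3.21 in culture 1 and 2.68 in culture 2. It was called whichever of the 4 arrays was left out, at 2.70 to 3.19 and adjusted p between 0.00533 and 0.0353, and at 2.87 (adjusted p = 0.0343) without both arrays that stood apart. In atg9 it was 1.90 ± 0.37 and did not pass (adjusted p = 0.0773), with 2.63 in culture 1 and 1.17 in culture 2. The direct difference between the mutants, atg9 minus atg5, was -1.04 ± 0.37 and did not pass either (adjusted p = 0.598).

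Against the background, 1 of 19 members (5.26%) was called in atg5 at 60 days, where 5.83% of all tested probe sets were called in either direction and 3.96% were higher. In atg9 0 of 19 were called, at a background of 0.044%, and 1 member, UGT87A2, had an unadjusted p under 0.05. The median member change was -0.19 in atg5, beside -0.14 over all tested probe sets, and -0.09 in atg9, beside -0.03. UGT87A2 had the highest change of the 19 members in both mutants.

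**Figure D2:**
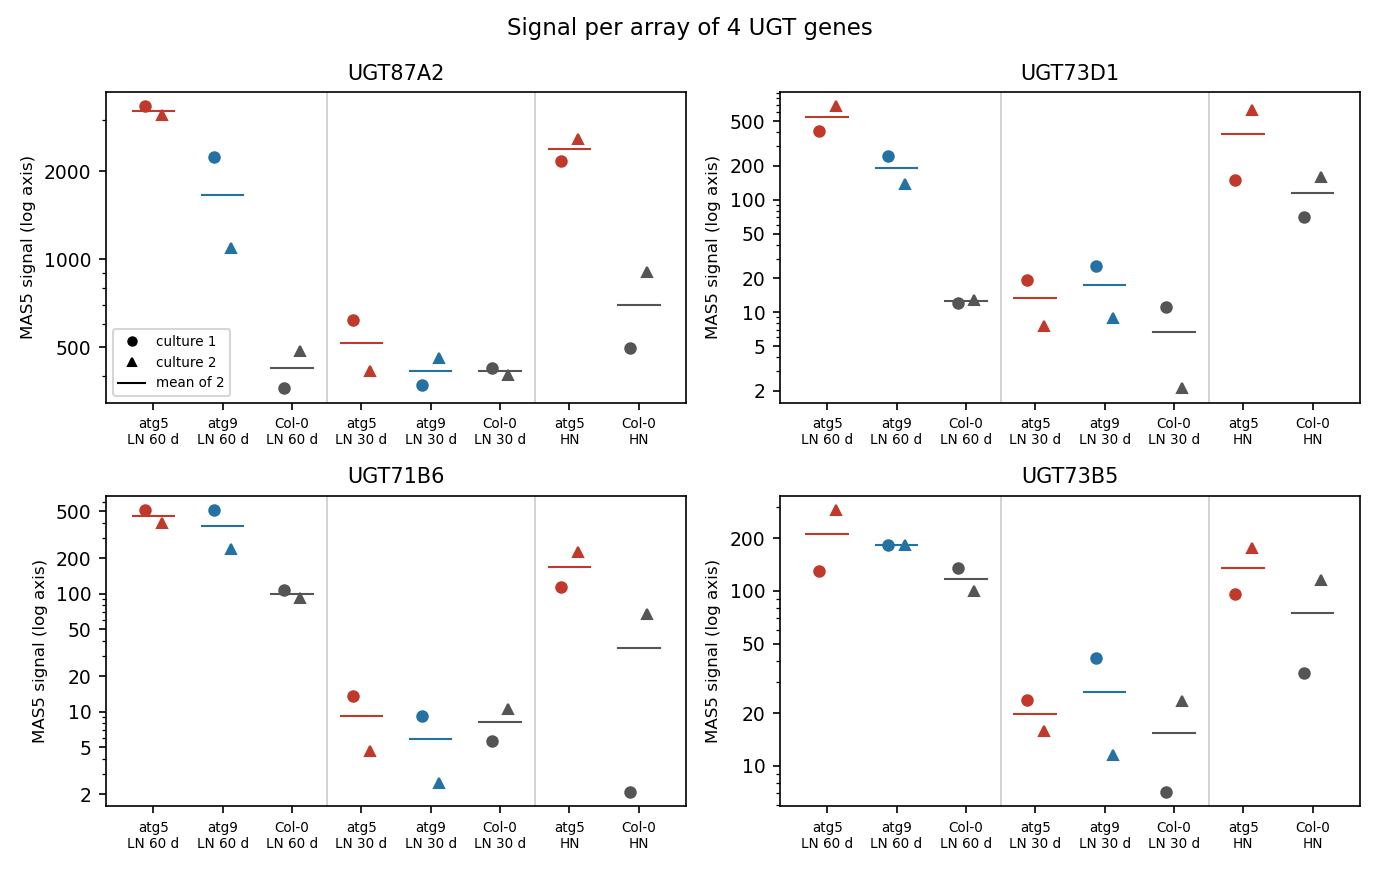
Signals on a log axis in each of the 8 groups for UGT87A2, UGT73D1, UGT71B6 and UGT73B5, with 1 point for each culture and mutants drawn left of Col-0. For UGT87A2 the 60-day mutant arrays lie between 1095.7 and 3345.1 and the 60-day Col-0 arrays at 361.3 and 486.0.

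The difference in UGT87A2 was small at 30 days on low nitrate. At 30 days it had 621.0 and 415.0 in atg5, 370.1 and 460.8 in atg9, and 425.4 and 402.9 in Col-0, and the 3 groups overlapped. The change in atg5 was 0.29 ± 0.37 and did not pass (adjusted p = 0.865). On high nitrate, where the age of the plants is not settled, UGT87A2 had 2176.7 and 2576.7 in atg5, against 497.2 and 902.6 in Col-0. Both atg5 arrays lay above both Col-0 arrays, and the change of 1.82 ± 0.37 did not pass (adjusted p = 0.0911, where 0.169% of all tested probe sets were called).

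Whether the age change of UGT87A2 differed between genotypes was tested directly. The change from 30 to 60 days was larger in atg5 than in Col-0 by 2.65 ± 0.52 (adjusted p = 0.0666), which did not pass, and the adjusted p was 0.0456 with 32 added to the signals. Without both arrays that stood apart it was 2.52 (adjusted p = 0.401). The cultures gave 2.67 and 2.64. For atg9 the same difference was 1.90 ± 0.52 (adjusted p = 0.563), with 2.83 and 0.98 in the cultures. The background of calls was 0.161% for atg5 and 0.00733% for atg9, and no member was called in either. The limma fit gave 3 members in atg5 and 2 in atg9 with an unadjusted p under 0.05. UGT72E2 was among them for atg9, at 1.72 ± 0.77 (adjusted p = 0.988, and 1.15 without both arrays that stood apart), and its value for atg5 was 1.51 ± 0.77 (0.393). UGT76C2 for atg5 had -1.05 ± 0.56 (0.417) and UGT84A4 for atg9 0.98 ± 0.48 (0.988, and 0.53 without both arrays that stood apart).

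Other members had smaller differences at 60 days that did not pass. UGT85A4 had 108.0 and 97.2 in atg5, against 268.3 and 211.2 in Col-0, a change of -1.22 ± 0.40 (adjusted p = 0.0933). UGT76C2, which makes cytokinin N-glucosides, had 92.6 and 123.1 in atg5, against 301.6 and 179.3 in Col-0, a change of -1.12 ± 0.40 (adjusted p = 0.113), and -0.73 without both arrays that stood apart. In both genes the atg5 arrays lay below the Col-0 arrays. For UGT78D1 the change was -1.10 ± 0.43 (adjusted p = 0.151), and -0.48 without both arrays that stood apart. For UGT72E1, which acts on coniferyl and sinapyl aldehydes of the lignin pathway, it was -1.14 ± 0.56 (adjusted p = 0.246), and -0.18 without them. These 2 values thus moved toward 0 when atg5 culture 1 was left out of the fit with Col-0 30 days culture 1.

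In atg9 at 60 days the next smallest p-values belonged to UGT71B1 (-0.43 ± 0.25), UGT76E11 (-0.92 ± 0.53), UGT76C1 (-0.40 ± 0.30) and UGT74D1 (-0.31 ± 0.24), each with an adjusted p of 0.999. UGT76E11 acts on flavonoids and UGT74D1 on auxin. UGT85A4 in atg9 had 334.0 and 167.9, a range that held both Col-0 signals. Between the mutants at 60 days, atg9 minus atg5, UGT85A4 gave 1.21 ± 0.40, UGT74D1 -0.63 ± 0.24, UGT76C2 0.94 ± 0.40 and UGT72E1 1.05 ± 0.56. All had adjusted p-values between 0.585 and 0.662. Without both arrays that stood apart they were 1.06, -0.33, 0.54 and 0.08, in that order. No member was called there, where 0.00733% of tested probe sets were, and 4 had an unadjusted p under 0.05.

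**Figure D3:**
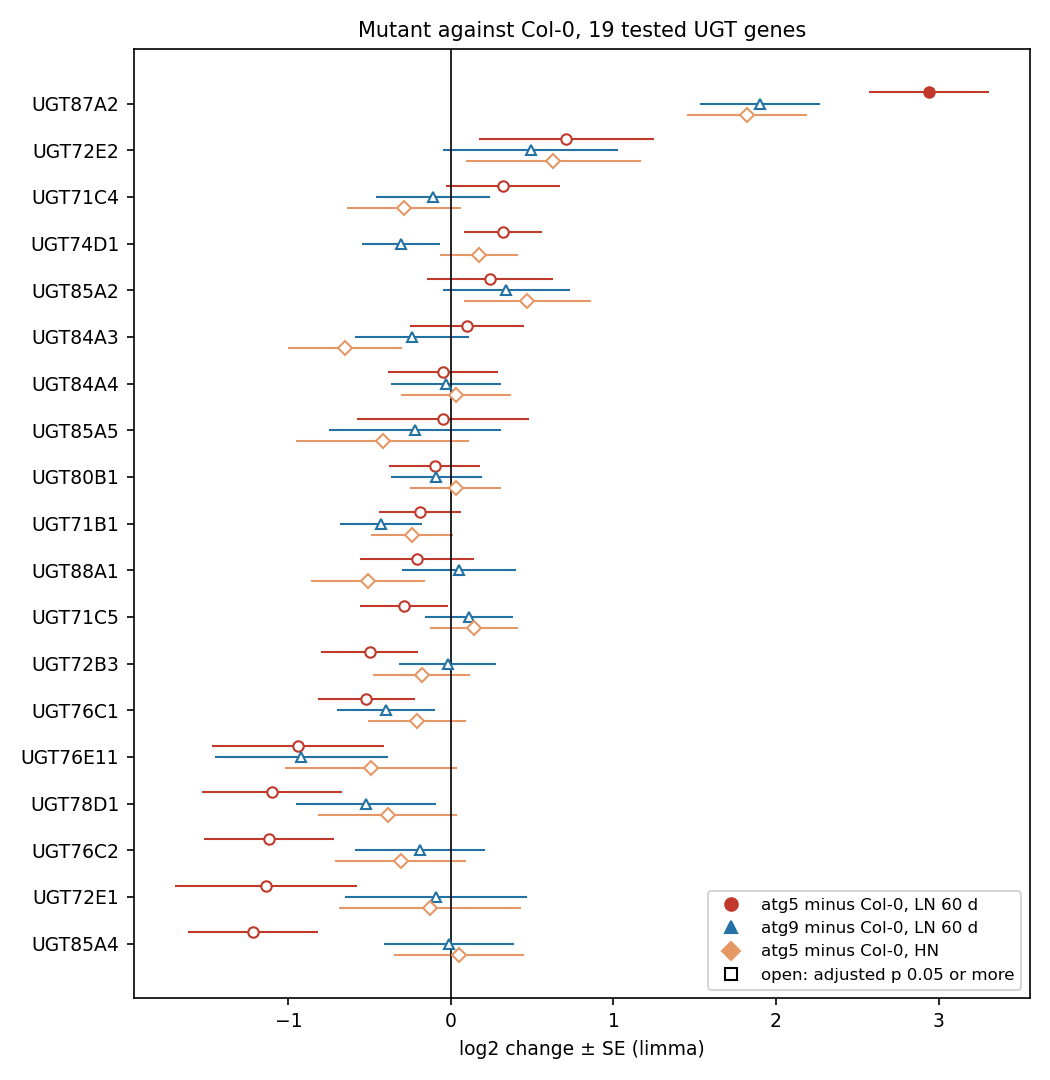
Log2 change from Col-0 (with SE bars) of the 19 tested members in atg5 at 60 days on low nitrate, in atg9 at 60 days on low nitrate and in atg5 on high nitrate. A filled point marks a call. UGT87A2 in atg5 at 60 days, at 2.94, is the 1 filled point, and its other values are 1.90 and 1.82.

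At 30 days 0 members were called in atg5, where 0% of all tested probe sets passed, and 0 in atg9, where 0.00733% passed. In limma 1 member in atg5 and 3 in atg9 had an unadjusted p under 0.05. UGT84A4, which makes glucose esters of hydroxycinnamates, had 162.4 and 128.8 in atg5, 171.0 and 108.6 in atg9, and 420.8 and 179.3 in Col-0. All 4 mutant arrays lay below both Col-0 arrays, and the higher Col-0 value came from the array with the raised lower quartile. Its changes were -0.93 ± 0.34 in atg5 (adjusted p = 0.680) and -1.01 ± 0.34 in atg9 (adjusted p = 0.799), and -0.47 and -0.56 without both arrays that stood apart. UGT84A3, of the same function, had -0.56 ± 0.35 and -0.88 ± 0.35, and the monolignol enzyme UGT72E2 -0.80 ± 0.54 and -1.23 ± 0.54, in atg5 and atg9 in that order. These values did not pass, and UGT72E2 had -0.23 and -0.66 without both arrays that stood apart. UGT72B3 stood at 0.48 ± 0.30 and 0.52 ± 0.30, and its values were 0.08 and 0.11 without those arrays. The sterol glucosyltransferase UGT80B1 had -0.35 ± 0.28 in atg9, and -0.11 without them.

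On high nitrate 0 of 19 members were called in atg5, where 0.169% of tested probe sets were, and 1 had an unadjusted p under 0.05. By limma 1099 of all 13648 tested probe sets had such a p. After UGT87A2 the smallest p-values belonged to UGT84A3, at -0.65 ± 0.35, UGT88A1, at -0.51 ± 0.35, UGT85A2, at 0.47 ± 0.39, and UGT72E2, at 0.63 ± 0.54. Their adjusted p-values lay between 0.718 and 0.877.

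Among the 26 dim members, a fit without the filter called 1 higher in atg5 at 60 days, where 2.83% of 22746 probe sets were higher, and 0 in atg9, where 0.123% were called. The dim members described here were chosen after their values were seen. UGT73D1 (AT3G53150) had 412.9 and 681.2 in atg5, 247.5 and 138.2 in atg9, and 12.1 and 12.9 in Col-0. All 4 mutant arrays lay far above the Col-0 arrays, which were under their arrays' lower quartile. In atg5 the change was 5.41 ± 0.94 (adjusted p = 0.00744), and 3.66 with 32 added to the signals, a damped estimate and not a bound. It was not called without Col-0 culture 1 (adjusted p = 0.0874) or culture 2 (0.0534), and was 5.80 (0.0437) without both arrays that stood apart. In atg9 it was 3.89 ± 0.94 (adjusted p = 0.179), and 2.29 with 32 added. The difference in age change between atg5 and Col-0 was 4.10 ± 1.32 (adjusted p = 0.237). UGT73D1 had 151.0 and 622.9 in atg5 on high nitrate, against 69.9 and 160.6 in Col-0, and these groups overlapped.

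UGT71B6 (AT3G21780), which makes the glucose ester of abscisic acid, had 518.1 and 398.9 in atg5, 516.8 and 242.5 in atg9, and 107.4 and 92.6 in Col-0 at 60 days. The mutant arrays all lay above the Col-0 arrays, and the changes of 2.19 ± 1.26 and 1.83 ± 1.26 did not pass (adjusted p = 0.412 and 1.00). UGT76B1 (AT3G11340), which conjugates isoleucic acid, salicylic acid and N-hydroxypipecolic acid, had 57.9 and 662.1 in atg5, 25.1 and 58.2 in atg9, and 7.9 and 1.6 in Col-0. Its atg5 signals differed widely between the cultures, and the lower came from the array with the raised actin ratio. Its change of 5.78 ± 1.88 did not pass (adjusted p = 0.117). The cultures gave 2.87 and 8.69, and since the Col-0 signals lay under the lower quartile the change with 32 added is also given, 2.77. On high nitrate UGT76B1 had 38.4 and 349.7 in atg5, against 2.6 and 30.6 in Col-0, a change of 3.70 (adjusted p = 0.757). UGT73B5 (AT2G15480), a pathogen-responsive gene, had 129.8 and 291.2 in atg5, 182.0 and 183.9 in atg9, and 134.5 and 100.2 in Col-0, and its atg5 and Col-0 arrays overlapped.

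The comparison of 60 with 30 days on low nitrate asks how rosettes change with age, within each genotype. The 3 age comparisons share no arrays with each other, but each shares arrays with the genotype and nitrate comparisons. In atg5 4 of 19 members (21.1%) were called, 2 higher and 2 lower, at a background of 25.9% in either direction, 12.6% higher and 13.3% lower. In atg9 6 (31.6%) were called, 5 higher and 1 lower, at a background of 22.1%, 13.5% higher and 8.61% lower. In Col-0 4 (21.1%) were called, all higher, at a background of 11.6%, of which 6.95% higher. The median member change was 0.35 in atg5, 0.49 in atg9 and 0.17 in Col-0, beside -0.03, 0.13 and 0.08 over all tested probe sets. The members' share was above the background in atg9 and Col-0 and below it in atg5. Each share rests on 4 to 6 genes, and its difference from the background was not tested. The Col-0 calls without both arrays that stood apart are given below.

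**Figure D4:**
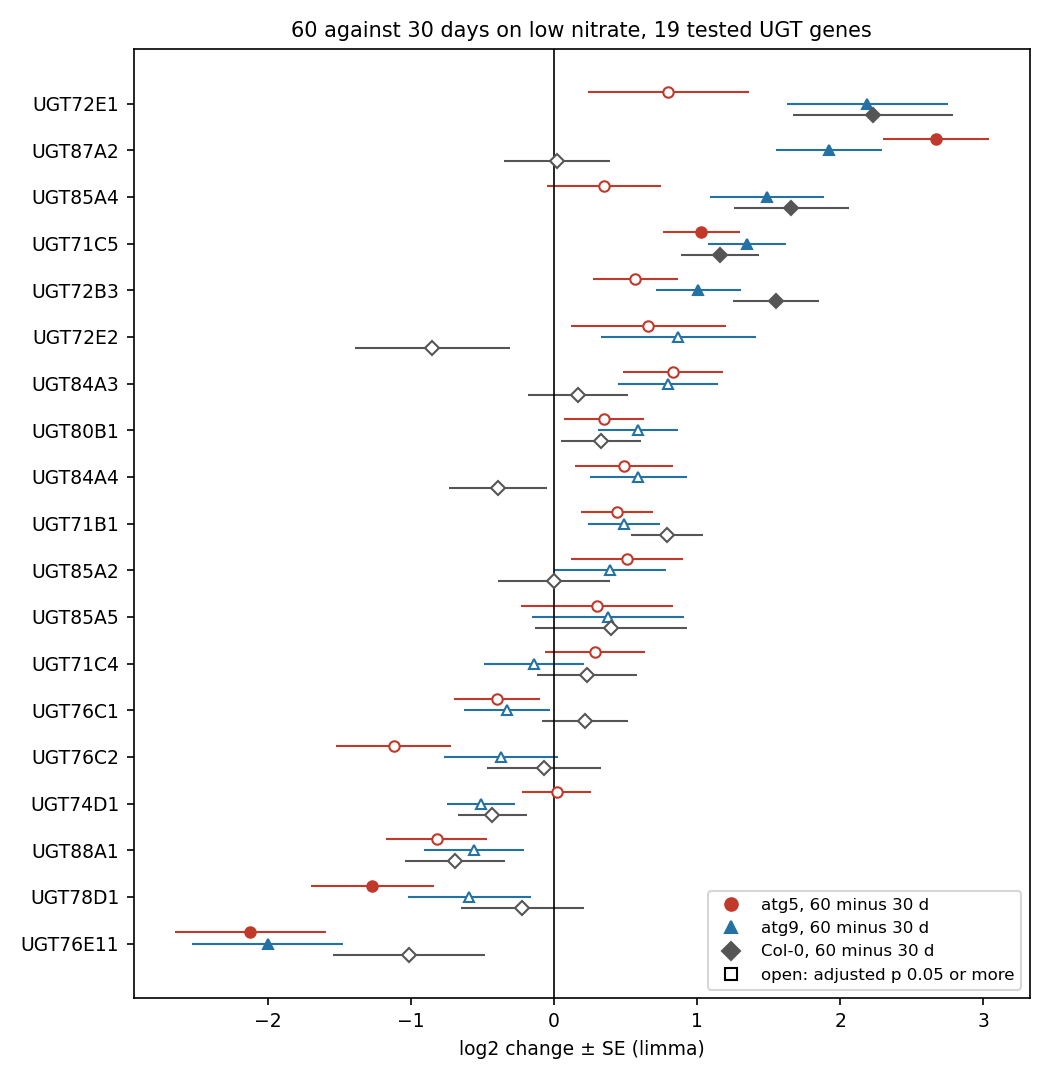
Log2 change from 30 to 60 days on low nitrate (with SE bars) of the 19 tested members in atg5, atg9 and Col-0. A filled point marks a call. UGT71C5 is filled in all 3 genotypes, at 1.03, 1.35 and 1.16, and UGT87A2 in both mutants, at 2.67 and 1.92, with Col-0 at 0.02.

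UGT71C5 (AT1G07240), which like UGT71B6 makes the glucose ester of abscisic acid, was the 1 member called with age in all 3 genotypes. It had 553.3 and 616.8 in atg5 at 60 days, against 301.4 and 271.5 at 30 days, and 897.2 and 661.4 in atg9 at 60 days, against 381.5 and 240.6. In Col-0 it had 692.0 and 733.5, against 275.4 and 367.9. In every genotype both 60-day arrays lay above both 30-day arrays. The rise was 1.03 ± 0.27 in atg5 (adjusted p = 0.0159), 1.35 ± 0.27 in atg9 (0.00565) and 1.16 ± 0.27 in Col-0 (0.0200). A fit without 1 array leaves its group with 1, so a lost call alone does not show dependence on the array left out. Each of these calls was lost without certain single arrays. In atg5 it was lost whichever of the 4 arrays was left out (0.91 to 1.15, adjusted p 0.0508 to 0.103). In atg9 it was lost without 60 days culture 1 (1.13, adjusted p = 0.0733) or 30 days culture 2 (1.00, 0.0739). In Col-0 it was kept only without 30 days culture 2 and was otherwise 0.89 to 1.24 (adjusted p 0.102 to 0.152).

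UGT87A2 rose with age in both mutants. The change was 2.67 ± 0.37 in atg5 (adjusted p = 0.00113) and 1.92 ± 0.37 in atg9 (adjusted p = 0.00512). In Col-0 it was 0.02, or 0.08 without both arrays that stood apart, and the 60-day and 30-day arrays overlapped. The atg5 call was kept whichever of the 4 arrays was left out (2.33 to 3.00, adjusted p 0.00421 to 0.0217), and the atg9 call was lost without 60 days culture 1 (1.33, adjusted p = 0.0677).

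The lignin-pathway gene UGT72E1 (AT3G50740) and its relative UGT72B3 (AT1G01420) were called in Col-0 and atg9. UGT72E1 had 1429.6 and 2631.6 in atg9 at 60 days, against 618.0 and 291.4 at 30 days, and 1744.6 and 2459.1 in Col-0, against 459.6 and 425.4. The 60-day arrays lay above the 30-day arrays in both. The rise was 2.19 ± 0.56 in atg9 (adjusted p = 0.0181) and 2.23 ± 0.56 in Col-0 (0.0289). In atg5 it had 493.2 and 1789.3, against 776.9 and 376.1, and the ages overlapped through the culture 1 array that stood apart. The atg5 change was 0.80 and did not pass (adjusted p = 0.314). The age change of UGT72E1 in atg5 minus that in Col-0 was -1.43, the lowest of the tested members, and did not pass. Without both arrays that stood apart the age changes were 1.76 in atg5 and 2.25 in Col-0.

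UGT72B3 had 832.0 and 771.2 in atg9 at 60 days, against 325.4 and 485.9 at 30 days, and 849.9 and 780.4 in Col-0, against 205.9 and 376.0. The ages did not overlap, and the rise was 1.01 ± 0.30 in atg9 (adjusted p = 0.0318) and 1.55 ± 0.30 in Col-0 (0.0103). UGT85A4 (AT1G78270) had 334.0 and 167.9 in atg9 at 60 days, against 108.5 and 65.7, and 268.3 and 211.2 in Col-0, against 59.5 and 95.0. It rose by 1.49 ± 0.40 in atg9 (adjusted p = 0.0221) and 1.66 ± 0.40 in Col-0 (0.0242). Since 1 Col-0 signal at 30 days lay under its array's lower quartile, the Col-0 change is also given with 32 added, 1.33. In atg5 neither gene passed. UGT72B3 had 450.1 and 732.1 at 60 days, against 362.8 and 414.9, a change of 0.57 (adjusted p = 0.178), and 0.88 (0.0724) without both arrays that stood apart. UGT85A4 had 108.0 and 97.2, against 101.0 and 63.7 (adjusted p = 0.541). The ages of atg5 overlapped for UGT85A4 and not for UGT72B3. The age change in atg5 minus that in Col-0 was -0.98 ± 0.42 for UGT72B3 (adjusted p = 0.318) and -1.31 ± 0.56 for UGT85A4 (0.324), and did not pass. The cultures gave -1.73 and -0.23 for UGT72B3 and -2.08 and -0.54 for UGT85A4. Without both arrays that stood apart the differences were -0.26 (0.888) and -0.60 (0.788).

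These calls were also each lost without certain single arrays, which alone does not show dependence on the array left out. In Col-0, without 30 days culture 1, the array with the raised lower quartile, UGT72B3 was 1.19 (adjusted p = 0.0835), UGT85A4 1.12 (0.124) and UGT72E1 2.39 (0.109). Without 60 days culture 1 they were 1.34 (0.152), 1.62 (0.199) and 2.41 (0.173). UGT85A4 (1.71, 0.0915) and UGT72E1 (2.04, 0.126) were also lost without 60 days culture 2, and UGT72E1 without 30 days culture 2 (2.07, 0.0804). Without both arrays that stood apart, 0 of the 4 Col-0 calls were left (UGT71C5 0.87, UGT72B3 1.15, UGT72E1 2.25 and UGT85A4 1.1), where 2.7% of all tested probe sets were called.

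In atg9, UGT72B3 was lost whichever of the 4 arrays was left out (0.81 to 1.21, adjusted p 0.0609 to 0.221). UGT85A4 was lost without 60 days culture 1 (1.07, 0.218), 30 days culture 2 (1.23, 0.158) and 30 days culture 1 (1.75, 0.05). UGT72E1 was lost without 60 days culture 1 (2.60, 0.0553), 60 days culture 2 (1.79, 0.120) or 30 days culture 2 (1.48, 0.176).

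UGT76E11 (AT3G46670), an enzyme that acts on flavonoids, was lower with age in both mutants. It had 94.6 and 212.5 in atg5 at 60 days, against 613.2 and 617.8 at 30 days, and 79.8 and 258.3 in atg9, against 587.5 and 558.6. In Col-0 it had 260.8 and 281.8, against 606.0 and 493.0. The 60-day arrays lay below the 30-day arrays in all genotypes. It fell by 2.12 ± 0.53 in atg5 (adjusted p = 0.0142) and 2.00 ± 0.53 in atg9 (0.0219), and the Col-0 change of -1.01 did not pass (adjusted p = 0.222). The difference in age change from Col-0 was -1.11 ± 0.75 in atg5 (0.527, and -0.68 without both arrays that stood apart) and -0.98 ± 0.75 in atg9 (0.988). The atg5 call was lost without 60 days culture 1 (-1.52, 0.140), 30 days culture 1 (-2.06, 0.0741) or 30 days culture 2 (-2.18, 0.0765), and it was -1.54 (0.145) without both arrays that stood apart. The atg9 call was lost without 60 days culture 1 (-1.09, 0.233), 30 days culture 1 (-1.89, 0.104) or 30 days culture 2 (-2.10, 0.0947).

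A pair of members came near the threshold with age. UGT76C2 had 92.6 and 123.1 in atg5 at 60 days, against 212.8 and 254.6 at 30 days, and the ages did not overlap. The change was -1.12 ± 0.40 (adjusted p = 0.0561), -0.73 (0.179) without both arrays that stood apart and -1.16 (0.0346) with quantile normalization. UGT71B1 had 715.1 and 1139.1 in Col-0 at 60 days, against 389.4 and 698.9 at 30 days, and the ages did not overlap. The change was 0.79 ± 0.25 (0.0602), and 0.59 (0.247) without both arrays that stood apart.

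With quantile normalization the calls of UGT71C5 in atg5 (0.90, adjusted p = 0.0657) and of UGT85A4 (1.19, 0.197) and UGT72B3 (0.81, 0.201) in atg9 were lost.

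UGT78D1 (AT1G30530), which adds rhamnose to flavonols, was called in atg5, and the difference of its age change from that of Col-0, -1.04 ± 0.61, did not pass (adjusted p = 0.457) and was -0.12 (0.974) without both arrays that stood apart. It had 721.7 and 2231.7 in atg5 at 60 days, against 2634.7 and 3540.3 at 30 days, 1205.4 and 2961.2 in atg9, against 2246.4 and 3586.8, and 2136.3 and 3443.6 in Col-0, against 2205.5 and 4539.4. In atg5 the ages did not overlap, and in the other genotypes they did. It fell by 1.27 ± 0.43 in atg5 (adjusted p = 0.0496). Without atg5 60 days culture 1, the array with the raised actin ratio, the change was -0.70 (adjusted p = 0.375), it was -0.66 (0.381) without both arrays that stood apart, and the call was also lost without 30 days culture 1 (-1.15, 0.199) or culture 2 (-1.39, 0.137), with quantile normalization (adjusted p = 0.0651), without the culture block (0.113), without the trend (0.06) and without the filter (0.0616).

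**Figure D5:**
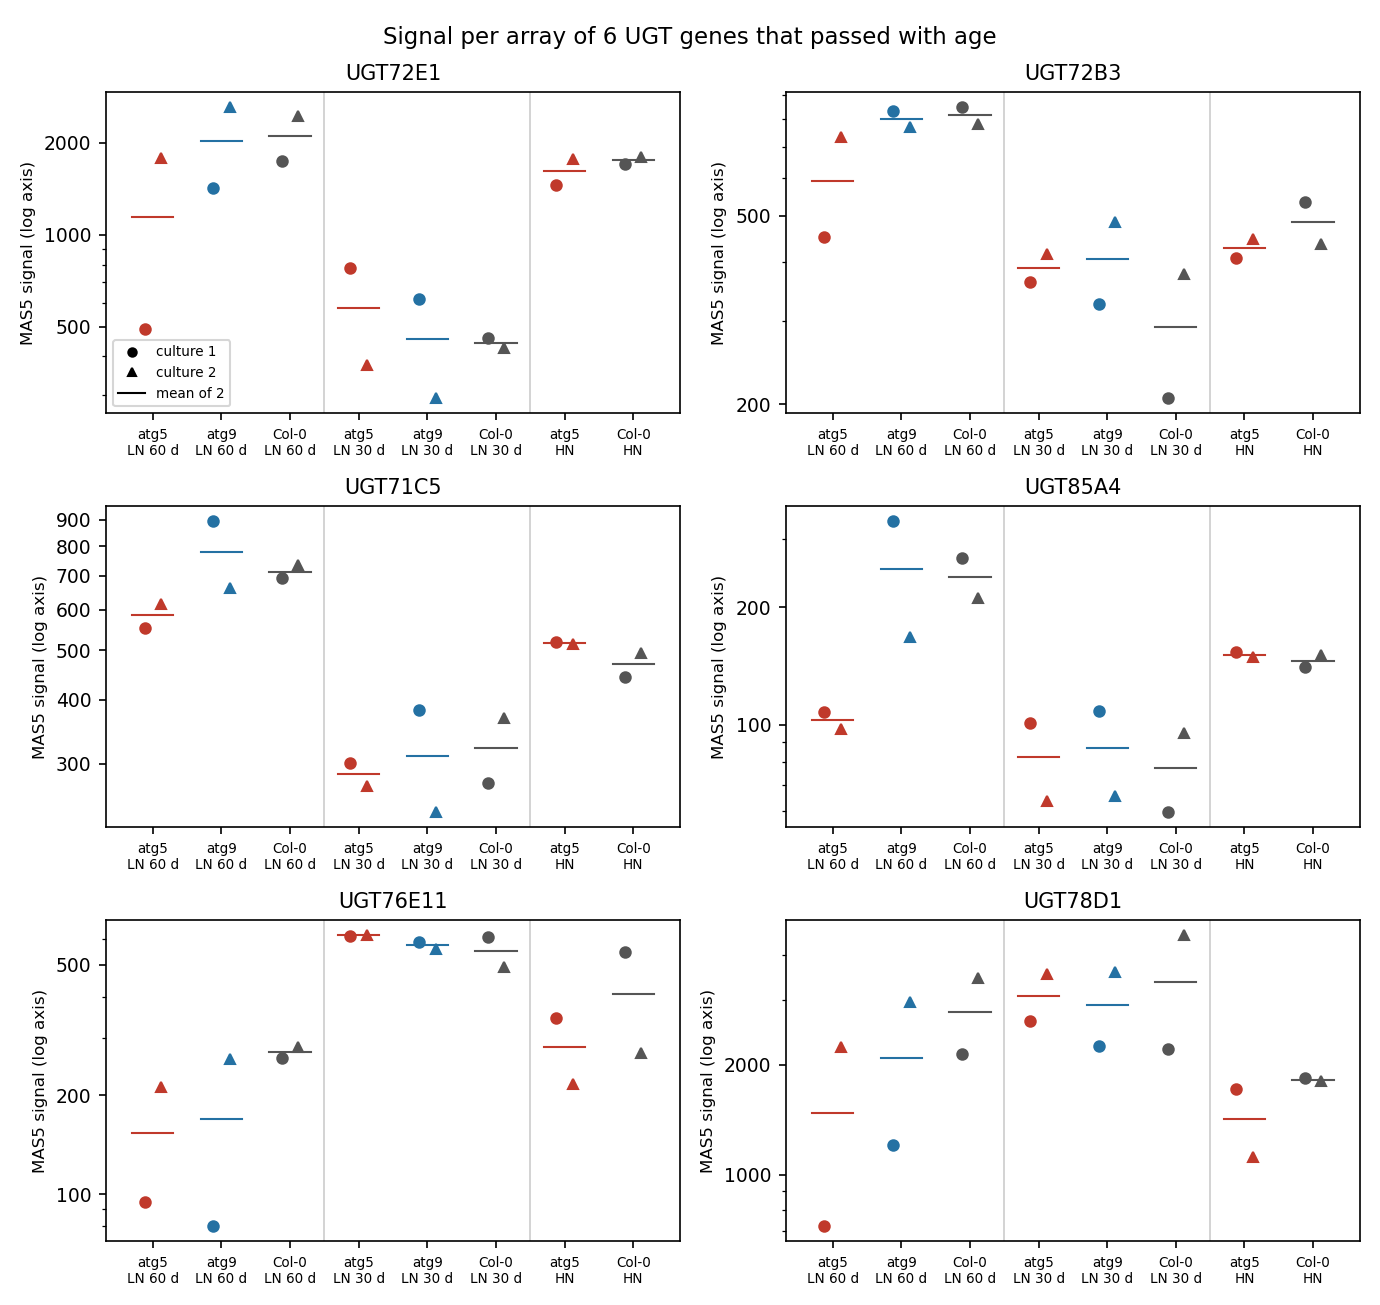
Signals on a log axis in each of the 8 groups for UGT72E1, UGT72B3, UGT71C5, UGT85A4, UGT76E11 and UGT78D1, with 1 point for each culture. UGT76E11 at 60 days runs from 79.8 to 281.8, below its 30-day range of 493.0 to 617.8, and UGT72E1 shows 1 low atg5 array at 493.2.

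In the fit without the filter, dim members were called with age as well: 4 higher in atg5, where 7.58% of 22746 probe sets were higher, and 1 higher in Col-0, where 3.5% were. In atg9 3 were higher, where 7.28% were, and 1 lower, where 4.45% were. UGT73B5 was called in every genotype, at 3.33 ± 0.80 in atg5 (adjusted p = 0.0156), 3.06 ± 0.80 in atg9 (0.0269) and 3.16 ± 0.80 in Col-0 (0.0373). Its signals at 30 days were 23.8 and 15.8 in atg5, 41.6 and 11.6 in atg9, and 7.1 and 23.6 in Col-0, and every 60-day array lay above them. With 32 added the changes were 2.15, 1.92 and 1.67, and the Col-0 adjusted p was then 0.0501. The Col-0 value was 2.28 (adjusted p = 0.221) without both arrays that stood apart. In each genotype the call was lost without 60 days culture 1 or 60 days culture 2, and also without 30 days culture 2 in the mutants and 30 days culture 1 in Col-0, at adjusted p 0.0531 to 0.14 in atg5, 0.102 to 0.281 in atg9 and 0.0874 to 0.307 in Col-0.

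UGT71B6 and UGT73D1 were called in the mutants and not in Col-0. No dim member was called for the difference in age change between either mutant and Col-0. UGT71B6 had 13.7 and 4.7 in atg5 at 30 days, 9.2 and 2.5 in atg9, and 5.7 and 10.6 in Col-0, all below the 60-day signals of its genotype. The change was 5.82 ± 1.26 in atg5 (adjusted p = 0.00944), 6.21 ± 1.26 in atg9 (0.00810) and 3.68 ± 1.26 in Col-0 (0.0966), and 3.57, 3.36 and 1.72 with 32 added. UGT73D1 had 19.2 and 7.5 in atg5 at 30 days, 25.9 and 8.9 in atg9, and 11.2 and 2.1 in Col-0. It rose by 5.47 in atg5 (adjusted p = 0.00294) and 3.61 in atg9 (0.0259), 3.65 and 2.16 with 32 added, and the Col-0 change of 1.37 did not pass (0.366, and 2.54 at 0.237 without both arrays that stood apart).

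The remaining dim calls lay lower on the scale. UGT73C1, which makes cytokinin O-glucosides, had 38.1 and 37.1 in atg5 at 60 days, against 2.9 and 2.5 at 30 days, and its change with 32 added was 1.00 (adjusted p = 0.0549). In Col-0 it had 41.9 and 48.9, against 7.3 and 2.9. Its change without 32 added was 3.80 in atg5 (0.0441), 3.30 in Col-0, which did not pass (0.102), and 0.06 in atg9. UGT84B2, an auxin-conjugating enzyme, had 1.8 and 1.3 in atg9 at 60 days, against 26.1 and 19.9, all under the lower quartile of the arrays, and its change with 32 added was -0.71 (0.0908). Both of these calls were lost whichever of the 4 arrays was left out (adjusted p 0.148 to 0.173 for UGT73C1 and 0.108 to 0.147 for UGT84B2). UGT73D1 in atg5 was kept whichever of the 4 arrays was left out, and its atg9 call was lost in every such case (adjusted p 0.0527 to 0.211). The calls of UGT71B6 in atg5 were lost without 60 days culture 1 (5.48, 0.0782) and 30 days culture 2 (4.81, 0.105) and without both arrays that stood apart (5.53, 0.0916), and those in atg9 without the atg9 arrays of the same age and culture (5.45, 0.1 and 5.0, 0.103).

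Marker signals also differed with age. PYK10, the 1 root marker with a named probe set, had signals of 423.1 to 504.7 at 60 days, against 1006.9 to 1142.1 at 30 days, in atg5, and 340.5 to 515.1 against 1293.9 to 1310.6 in atg9. In Col-0 it had 281.3 to 688.0 against 855.7 to 1085.7. It was called lower in atg5 (adjusted p = 0.0283) and atg9 (0.00913) and not in Col-0 (0.0619). The leaf markers summed to 38323 to 42893 at 60 days, against 52079 to 67095 at 30 days, in atg5, and 33414 to 42547 against 54146 to 59304 in atg9. In Col-0 they summed to 42696 to 44684 against 42585 to 57067. SBPASE was called lower in atg5 (-1.10, adjusted p = 0.0103) and atg9 (-1.10, 0.0119), and PRK in atg9 (-0.76, 0.0269), and no other of these leaf values passed. Of the 12 root markers listed 11, and of the 9 flower and stem markers 9, have no named probe set and were not analysed here. The part of these markers in the age changes was not tested.

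The comparison of low nitrate with high nitrate asks how nitrate supply alters transcripts, and its meaning depends on the unsettled age of the high-nitrate arrays. For low nitrate at 30 days against high nitrate, 1 of 19 members was lower in atg5, at a background of 12.4% in either direction and 7.32% lower, and 0 were called in Col-0, at 8.06%. For low nitrate at 60 days, 0 were called in atg5, at 0.0659%, and 0 in Col-0, at 0.535%. With an unadjusted p under 0.05 limma gave 7 members in atg5 and 4 in Col-0 at 30 days, and 2 in atg5 and 4 in Col-0 at 60 days. UGT87A2 was the 1 called, at 621.0 and 415.0 in atg5 on low nitrate at 30 days, against 2176.7 and 2576.7 on high nitrate. The low-nitrate arrays lay below the high-nitrate arrays, and the change was -2.22 ± 0.37 (adjusted p = 0.00564). It was lost without atg5 30 days culture 2 (-1.89, 0.0944) or atg5 high nitrate culture 2 (-2.09, 0.0942). The root marker PYK10 was called higher on low nitrate at 30 days, at 1006.9 to 1142.1 against 228.3 to 271.7 on high nitrate in atg5 (2.11 ± 0.36, adjusted p = 0.00595) and 855.7 to 1085.7 against 299.3 to 341.5 in Col-0 (1.59 ± 0.36, 0.0235). Its part in the nitrate changes was not tested.

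Values near the threshold followed at 30 days. UGT72E1 had 776.9 and 376.1 in atg5 on low nitrate, against 1454.3 and 1772.7 on high nitrate, a change of -1.57 ± 0.56 (adjusted p = 0.0889). In Col-0 it had 459.6 and 425.4, against 1707.0 and 1803.9, a change of -1.99 ± 0.56 (0.0507, and 0.0455 with 32 added). In both genotypes the low-nitrate arrays lay below the high-nitrate arrays. UGT74D1, which acts on auxin, had 1173.4 and 1190.8 in Col-0 on low nitrate, against 707.0 and 664.6 on high nitrate, a change of 0.79 ± 0.24 (0.0605). With quantile normalization this change was 0.87 and passed (0.0425). UGT72B3 (-0.79 ± 0.30), UGT85A4 (-0.95 ± 0.40) and UGT71C5 (-0.56 ± 0.27) in Col-0 had adjusted p-values of 0.110, 0.148 and 0.201, and were -0.39, -0.39 and -0.26 without both arrays that stood apart. In atg5 UGT71C5 was at -0.85 ± 0.27 (0.0569), UGT78D1 at 1.14 ± 0.43 (0.105) and UGT85A4 at -0.91 ± 0.40 (0.152).

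At 60 days the values were of similar size and did not pass. UGT88A1 had 2499.1 and 3204.9 in atg5 on low nitrate, against 6613.5 and 5256.4 on high nitrate, a change of -1.06 ± 0.35 (adjusted p = 0.266). In Col-0 it had 2373.5 and 4487.0, against 9612.3 and 7379.3, a change of -1.37 ± 0.35 (0.133). The groups did not overlap in either genotype. UGT84A3 had 1146.5 and 583.0 in atg5 on low nitrate, against 285.4 and 249.1 on high nitrate, a change of 1.62 ± 0.35 (0.125), and 1.02 without both arrays that stood apart. In Col-0 it stood at 0.86 ± 0.35, UGT72B3 at 0.75 ± 0.30, UGT71C5 at 0.61 ± 0.27 and UGT87A2 at -0.68 ± 0.37, with adjusted p-values between 0.340 and 0.499. In atg5 UGT74D1 stood at 0.52 ± 0.24, UGT76C1 at -0.57 ± 0.30 and UGT76E11 at -0.95 ± 0.53, with adjusted p-values between 0.394 and 0.487. Without both arrays that stood apart these 3 were 0.22, -0.36 and -0.37.

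Without the filter, the dim member UGT73D1 was called lower on low nitrate at 30 days in both genotypes, where 4.13% of probe sets in atg5 and 2.45% in Col-0 were lower. It had 19.2 and 7.5 in atg5 on low nitrate, against 151.0 and 622.9 on high nitrate, and 11.2 and 2.1 in Col-0, against 69.9 and 160.6. The low-nitrate arrays lay below the high-nitrate arrays in both. The change was -4.68 in atg5 (adjusted p = 0.0136) and -4.45 in Col-0 (0.0225), and -2.94 and -1.87 with 32 added. The Col-0 change then no longer passed (0.0749). The atg5 call was lost without high nitrate culture 2 (-3.36, 0.242) or low nitrate culture 2 (-4.05, 0.176), and the Col-0 call without high nitrate culture 2 (-3.61, 0.213) or low nitrate culture 2 (-3.22, 0.0554).

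By acceptor, the tested members were few. Of 9 genes listed for phenylpropanoid and sinapate conjugation 7 had a probe set and 5 were tested. In atg5 at 60 days 0 of the 5 were called and their median change was -0.05, beside -0.14 over all tested probe sets. With age 0 were called in atg5, 2 were higher in atg9 and 2 in Col-0, where 25.9%, 22.1% and 11.6% of all tested probe sets were called. The medians were 0.66 in atg5, 0.87 in atg9 and 0.17 in Col-0, beside -0.03, 0.13 and 0.08 over all tested probe sets. The 2 tested cytokinin enzymes, UGT76C1 and UGT76C2, which are adjacent genes, had 0 calls in atg5 at 60 days. Their median was -0.82, beside -0.14 over all tested probe sets. Without both arrays that stood apart UGT76C1 was at -0.31 and UGT76C2 at -0.73. Single members were tested for abscisic acid (UGT71C5), auxin (UGT74D1), flavonols (UGT78D1), sterols (UGT80B1) and the UGT76E subfamily (UGT76E11), and none was called in atg5 at 60 days. For salicylate and pipecolate conjugation 3 of 4 listed genes had a probe set and 0 were tested, and the same held for 3 of 5 genes of the UGT73B group. Both listed brassinosteroid enzymes had no named probe set.

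Outside the family, glutathione transferases join glutathione to foreign and reactive compounds, and often act in the same detoxification routes. Of 39 listed, 9 had a probe set and 6 were tested. In atg5 at 60 days 0 were called, where 5.83% of all tested probe sets were. Their median change was -0.33, beside -0.14 over all tested probe sets. With age, GSTU16 was higher in all 3 genotypes, at 1.28 ± 0.29 in atg5 (adjusted p = 0.00946), 1.09 ± 0.29 in atg9 (0.0218) and 1.15 ± 0.29 in Col-0 (0.0297). GSTU20 and GSTU26 were lower in atg5, at -2.69 ± 0.60 (0.00828) and -2.66 ± 0.74 (0.0217). In atg9 they had -1.64 (0.0689) and -2.05 (0.0666), and in Col-0 -1.34 (0.154) and -1.32 (0.247), which did not pass. For the difference in age change between atg5 and Col-0, 0 of the 6 were called, where 0.161% of all tested probe sets were. The remaining 3 tested genes were called with age in no genotype. Of all tested probe sets, 25.9% were called with age in atg5, 22.1% in atg9 and 11.6% in Col-0. Of 32 genes of UDP-sugar supply 1 had a probe set, USP, which makes UDP-sugars from sugar phosphates. Its change with age was -0.62 ± 0.24 in atg5, -0.41 ± 0.24 in atg9 and -0.32 ± 0.24 in Col-0, and none passed. Of 15 listed regulators of the TGA and NAC families 0 had a named probe set.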

How the data were processed

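RNA from whole rosettes was measured on 16 one-colour Affymetrix arrays. Intensity values on a linear scale were deposited in 1 table without detection calls, and the submitters' processing notes name MAS5 as the tool. Array number limits the precision. Signals were floored at 1 before log2. The 64 control probe sets were left out, as were dim probe sets, those whose log2 mean fell below percentile 40 (a geometric mean of 93.9). limma 3.58.1 in R 4.3.3 was fitted to 8 group means with the culture number as a block and a trend in eBayes (7 residual degrees of freedom), two-sided, for 15 comparisons, each adjusted over 13648 probe sets. The labels name the number as a culture. Deviations of same-numbered arrays correlated at -0.159 to 0.686 over 28 pairs of groups (median -0.0657), across probe sets, with 8 pairs over 0.1. Where signals are low, 32 was added as an alternative. The procedure was tested on simulated data.

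Genes were named from an annotation that gives 1 gene to 13513 probe sets and does not list 8730, so lists cover a part of each pathway. A further 3 probe sets that name a UGT with another gene were left out. Neighbours come from the RefSeq gene table (TAIR10.1). Named were all members called in any comparison, the 5 with the smallest p where fewer than 5 were called, the 3 with the highest and lowest mean signals, and up to 4 tested members of each list. Members and lists were chosen with earlier results of these data known. Alternatives were no block, quantile normalization, no filter, 32 added, no trend, and arrays left out.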

Additional observations from a re-analysis of the deposited data

How the results depend on the processing

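Of the 16 called changes of single members, 0 changed direction under any alternative. Without the filter 15 were kept, with 32 added 16, without the trend 15, with quantile normalization 12, without both arrays that stood apart 10, and 2 with every single array left out in turn. The culture pairing mattered little: with no replicate block 15 were kept. UGT members called are counted over all 45 without the filter, and over the 19 tested otherwise. Without the filter they numbered 2 in atg5 at 60 days (1 with it), 7 with age in atg5 (4) and 10 with age in atg9 (6). For nitrate at 30 days they numbered 2 in atg5 (1) and 1 in Col-0 (0). Shares over all probe sets under each setting are not given here, so a larger count is not a larger share. For nitrate at 30 days in Col-0 the count was also 1 with no replicate block, 1 with quantile normalization and 1 with 32 added. With 32 added it was 1 for the difference in age change between atg5 and Col-0 (0). Without both arrays that stood apart it was 2 with age in atg5 (4), 0 with age in Col-0 (4) and 3 for nitrate at 30 days in atg5 (1). With 1 array left out, counts ran from 1 to 5 in atg5 at 60 days, 0 to 1 in atg5 and 0 to 1 in atg9 at 30 days, 1 to 6 with age in atg5, 0 to 4 in atg9 and 0 to 4 in Col-0. They ran from 0 to 2 for nitrate at 30 days in atg5, 0 to 3 in Col-0, 0 to 2 at 60 days in atg5, and 0 to 1 for the difference in age change of atg5. A group left with 1 array is assumed to vary like the others. An alternative that takes another probe set per gene could not be run, since 0 members have more than 1. Further settings on the fit without the filter were chosen after seeing the data. Where signals lie near background, the size of a change is not settled.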
